A study of Mus musculus with 24 samples.

Results

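Mybpc1, Gm4792, Arhgef37, 5430419D17Rik and Ddn are 5 mouse genes with steep time courses in retinal organoids and with little known of their role in retina. They were picked by symbol because their levels had among the largest rises or falls between timepoints in these same libraries, and they are 5 of the 46603 annotated genes and of the 126602 features counted. Mouse retinal organoids (MROs) are small retinal tissues grown from embryonic stem cells, here of the wildtype line E14Tg2a, and 1 RNA library was made from each of 24 MROs. The libraries form 4 groups of 6, at D20, D22, D25 and D30 in culture. All MROs were control organoids that had received solvent water and, earlier in culture, the synthetic retinoid EC23, and all came from 1 independent experiment and 1 cell line. The spread between the 6 MROs of a timepoint is therefore the spread within 1 experiment, and p-values refer to that spread. Because the choice of the 5 genes used the differences between timepoints, those differences are described without a test. Tests are given only for the relatives and partners of the 5 genes, for their genomic neighbours, and for differences between MROs of 1 timepoint.

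MROs pass through the end of retinal cell birth in this window and then mature, so progenitor transcripts give way to those of rods, bipolar cells and Müller glia. Mybpc1 is the slow skeletal muscle isoform of myosin binding protein C, a protein of the thick filament. Arhgef37 belongs to the Dbl family of guanine nucleotide exchange factors, which switch small GTPases to their active state. Ddn encodes dendrin, known from dendrites and the postsynaptic density of forebrain neurons and from the slit diaphragm of kidney podocytes. 5430419D17Rik carries the RefSeq symbol Cdcp3, for a CUB domain containing protein, and Gm4792 is a predicted gene with no known function.

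All positions are on GRCm38 with the GENCODE vM21 annotation. Mybpc1 (ENSMUSG00000020061) lies on the minus strand of chromosome 10 from 88518279 to 88605152, with 6 transcripts, a union of exons of 4.527 kb and a longest coding sequence of 1127 codons. Gm4792 (ENSMUSG00000053420) lies on the same strand of chromosome 10 from 94293665 to 94298703. Its 1 transcript of 771 bases has a coding sequence of 183 codons in GENCODE, whereas RefSeq lists the gene as a lncRNA. 5430419D17Rik (ENSMUSG00000006204) spans 131174402 to 131306451 on the plus strand of chromosome 7. 5430419D17Rik has the longest coding sequence of the 5, with 2486 codons. Ddn (ENSMUSG00000059213) lies on the minus strand of chromosome 15 from 98803777 to 98809490 and codes for 710 codons.

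The 250 bases before the start of 3 of the genes are shown, because Mybpc1 and Gm4792 had parallel courses and 5430419D17Rik the opposite one. They are RefSeq promoter sequences of GRCm38.p6 on the strand of the gene, 5′ to 3′, and the window is chr10:88605153-88605402 for Mybpc1, chr10:94298704-94298953 for Gm4792 and chr7:131174152-131174401 for 5430419D17Rik. Capitals mark matches to any of 6 short motifs that were searched on both strands, and no matches overlap.
Mybpc1: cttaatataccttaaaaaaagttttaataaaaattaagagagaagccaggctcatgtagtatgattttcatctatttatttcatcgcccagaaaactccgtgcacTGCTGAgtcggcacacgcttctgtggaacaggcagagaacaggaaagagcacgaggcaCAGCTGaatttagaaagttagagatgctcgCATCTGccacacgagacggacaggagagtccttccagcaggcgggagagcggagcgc
Gm4792: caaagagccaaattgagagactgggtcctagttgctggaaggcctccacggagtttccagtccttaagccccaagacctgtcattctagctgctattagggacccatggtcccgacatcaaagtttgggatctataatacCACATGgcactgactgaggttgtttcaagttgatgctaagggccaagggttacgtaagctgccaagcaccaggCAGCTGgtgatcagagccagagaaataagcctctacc
5430419D17Rik: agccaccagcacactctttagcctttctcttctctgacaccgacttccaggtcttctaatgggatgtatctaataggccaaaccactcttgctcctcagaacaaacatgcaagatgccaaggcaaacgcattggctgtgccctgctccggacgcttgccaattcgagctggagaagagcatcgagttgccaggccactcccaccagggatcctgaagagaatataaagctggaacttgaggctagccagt

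The motifs were the E-box CANNTG, bound by basic helix-loop-helix factors, the CRX type motif TAATCC, the homeodomain motif TAATTA, the RBPJ type motif TGGGAA, the NRL type motif TGCTGA and the nuclear receptor motif AGGTCA. The Mybpc1 window holds E-boxes that begin 87 and 57 bases before the gene start (written as -87 and -57) and an NRL type match at -145. The Gm4792 window holds E-boxes at -110 and -37, and the 5430419D17Rik window holds none of the 6 motifs. Of 32851 mouse promoter windows of the same length, 66.2% hold an E-box, 16.1% the NRL type motif, 6.3% the CRX type motif, 4.8% the homeodomain motif, 21.6% the RBPJ type motif and 14.0% the nuclear receptor motif. The GC content was 46.4% for Mybpc1, 50.4% for Gm4792 and 51.6% for 5430419D17Rik, with a median of 52.4% over all windows. The promoter of Ddn is named only, since these 3 genes were the ones matched in the promoter table used.

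Reads assigned to features ranged from 13634846 to 19477108 per MRO. At this depth 3 counts correspond to 0.154 to 0.22 CPM (counts scaled to library size), which covers counting error only. All 5 genes passed the filter on low counts (10 normalized counts on average), with base means from 145 for 5430419D17Rik to 322 for Arhgef37. Transcripts of rods, a cell type of the labelled tissue, were seen in every library. The summed level of 7 rod photoreceptor genes was between 246 and 10280 normalized CPM. At D20 most of it came from Sag, Nr2e3 and Nrl, with means of 469, 136 and 84.2, while Gnat1 had 0.247. Lens genes summed to at most 10.6. Genes of pigment epithelium summed to between 26.5 and 241.6, and those of cortex type neurons to between 12.6 and 310. In whole MROs, fewer cells of a type and less RNA per cell cannot be told apart.

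Mybpc1, Gm4792 and Arhgef37 were highest at D20 and lowest at D30. Across D22 and D25, all 3 had lower levels in each D25 MRO than in any D22 MRO, a pattern that 2.29% of the 46949 features tested showed. D30 and D20 were separate for these 3 and for 5430419D17Rik, as in 9.34% of features with the lower and 9.6% with the higher level at D30. The choice of the genes used these contrasts, so nothing is read from the counts.

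Mybpc1 had between 182 and 638 counts at D20 (median 420), between 59 and 525 at D22 (median 222) and between 9 and 43 at D25 (median 22). At D30, 4 of the 6 MROs had no Mybpc1 read, and the other 2 had 4 and 9. The means in normalized CPM were 27.5 ± 11.3, 16.2 ± 10.6, 1.42 ± 0.893 and 0.142 ± 0.252 in time order (± SD, n = 6). The ranges of D20 and D22 overlapped, those of D22 and D25 did not, and at D25 and D30 they overlapped again, by D30 replicate 4. The fitted log2 fold changes between successive timepoints were -0.76 ± 0.40, -3.52 ± 0.47 and -3.32 ± 0.70 (standard error). The last of these rests on 13 reads over the 6 D30 libraries, 9 of them in replicate 4, and becomes -4.67 without that MRO. Between D20 and D30 the summed counts, 2442 and 13, give a depth-scaled ratio of D30 over D20 of 0.00476, with a counting interval from 0.00253 to 0.00816.

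Muscle genes give a frame for this level. Summed over 17 skeletal muscle genes, the medians were 50.9, 37.5, 26.4 and 26.2 normalized CPM from D20 to D30. All 17 were detected in some library, and Ttn, Myh3, Tnnt1 and Tnnc1 in every library. Myod1 and Myog, the myogenic regulators, had no read in 21 and 20 of the 24 libraries, and Myl1, a myosin light chain of fast fibres, none in 20. Ttn, the giant sarcomere protein titin, was the highest gene of the list at each timepoint, with means of 38.0, 27.0, 19.8 and 10.5 normalized CPM, and Myh3, an embryonic myosin heavy chain, had 6.71, 4.27, 1.69 and 1.26. Others were highest at D30, as Tnnt1, the troponin T of slow fibres, with means of 1.85, 1.36, 1.86 and 6.59 normalized CPM, and Actn2, an alpha-actinin of the Z disc, with 0.358, 0.283, 0.607 and 2.20. Between MROs of a timepoint, the correlation of Mybpc1 with this list was -0.12 (permutation p = 0.60, adjusted p = 0.786, n = 24) and did not pass.

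Gm4792 had between 296 and 402 counts at D20 (median 343), between 139 and 306 at D22 (median 273.5), between 36 and 130 at D25 (median 68.5) and between 9 and 41 at D30 (median 24). The 4 means were 23.5 ± 2.94, 16.6 ± 4.28, 4.49 ± 2.10 and 1.51 ± 0.918 normalized CPM (SD, n = 6). Groups overlapped at the first and the last step, and the D22 and D25 groups were separate. The fitted log2 fold changes were -0.50 ± 0.27, -1.89 ± 0.29 and -1.57 ± 0.31 over the 3 steps, and -3.96 ± 0.32 over the whole course. No D30 MRO reached the lowest D20 value of 19.5 normalized CPM, the highest being 2.75.

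Arhgef37 (ENSMUSG00000045094) spans 61491657 to 61536594 on the minus strand of chromosome 18, with a union of exons of 5.87 kb. It had between 594 and 1067 counts at D20 (median 668), between 205 and 554 at D22 (median 393.5), between 101 and 165 at D25 (median 110.5) and between 21 and 43 at D30 (median 31). It was the only one of the 5 whose 6 MROs were separate from those of the preceding timepoint at every step. The lower pattern was shown by 0.965% of features for D22 against D20 (the higher one by 1.48%) and by 2.15% for D30 against D25. In normalized CPM the means were 51.3 ± 13.5, 25.7 ± 7.79, 7.18 ± 1.46 and 1.94 ± 0.491 (SD, n = 6). The fitted log2 fold changes were -0.996 ± 0.191, -1.84 ± 0.20 and -1.89 ± 0.22 for the successive steps and -4.73 ± 0.23 for D30 against D20. The level of this exchange factor thus changed by a similar factor at the second and the third step, 3.58-fold and 3.70-fold by the means.

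5430419D17Rik and Ddn went the other way, with the level of every D25 MRO above every D22 MRO, as in 3.17% of features. For 5430419D17Rik a single read was seen over the 6 D20 libraries, and at D22 4 MROs had no read, 1 had 1 and replicate 6 had 11. At D25 the counts were between 14 and 37 (median 27), and at D30 they were between 426 and 978 (median 508). The level was 1.52 ± 0.453 normalized CPM at D25 and 35.5 ± 11.7 at D30 (SD, n = 6), and the 2 groups were separate, as in 2.14% of features. At D20 and D22 the means, 0.0107 and 0.133, were below the level of 3 counts, so no fold is given between them. The summed counts of 153 at D25 and 12 at D22 give a depth-scaled ratio of 11.4 (counting interval 6.36 to 22.6). From D25 to D30 the ratio was 23.1 (counting interval 19.6 to 27.3), with a fitted log2 fold change of 4.53 ± 0.37. The fitted value for D25 against D22, 3.43 ± 0.53, becomes 6.16 without D22 replicate 6. Between D20 and D30 the 1 and 3522 reads give a ratio of 3150 with a counting interval from 565 to 124500.

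Ddn had between 3 and 23 counts at D20 (median 15.5) and between 0 and 9 at D22 (median 5). At D25 its 6 MROs had 353, 14, 84, 35, 49 and 297 counts, and at D30 580, 387, 101, 860, 748 and 22. In normalized CPM the 4 means were 0.997 ± 0.471, 0.295 ± 0.222, 8.25 ± 8.68 and 28.6 ± 23.1 (SD, n = 6). The levels at D25 and D30 overlapped, and so did those at D20 and D30, since D30 replicate 6 at 1.22 normalized CPM lay below D20 replicates 1 and 3 at 1.33 and 1.58. The other 5 D30 MROs lay above all 6 of D20. The fitted log2 fold change was -1.70 ± 0.94 for D22 against D20, 4.74 ± 0.83 for D25 against D22, 1.79 ± 0.61 for D30 against D25 and 4.83 ± 0.74 for D30 against D20. Over the whole course its standard error was the largest of the 5 genes.

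**Figure D1:**
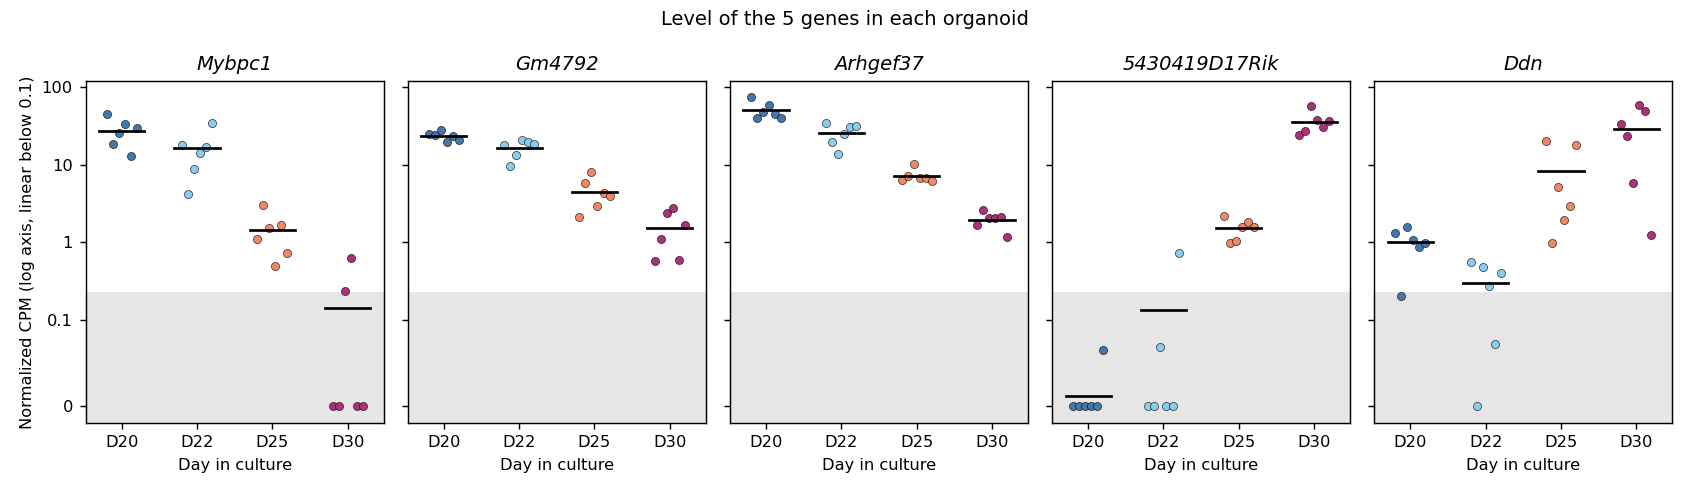
Normalized CPM of the 5 genes (vertical axis, logarithmic above 0.1 and linear below) by day in culture. Each point is 1 organoid, bars are means of 6, and the grey band marks levels up to that of 3 counts in the shallowest library, 0.22 CPM. Arhgef37 steps down without overlap between neighbouring timepoints, while the 6 Ddn points at D30 run from 1.22 to 59.2 normalized CPM.

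Compared per kb of exon, Gm4792 had the highest mean of the 5 at D20, D22 and D25, with 30.4, 21.5 and 5.82 normalized CPM per kb. At D20 Arhgef37 followed with 8.74 ± 2.29 and Mybpc1 with 6.08 ± 2.50 normalized CPM per kb. Their ranges overlapped, but Arhgef37 was above Mybpc1 in every D20 MRO. Ddn (0.264) and 5430419D17Rik (0.0012) were far below. At D30 the order was Ddn with 7.58 ± 6.10, 5430419D17Rik with 4.14 ± 1.36, Gm4792 with 1.96 ± 1.19, Arhgef37 with 0.330 and Mybpc1 with 0.0313 normalized CPM per kb. The first 2 of this order overlapped, with Ddn below 5430419D17Rik in D30 replicates 3 and 6 and above it in the other MROs.

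The 5 genes differed in how evenly the MROs of 1 timepoint expressed them. The coefficient of variation (CV) of Arhgef37 was between 20.4% and 30.3% at the 4 timepoints, and that of 5430419D17Rik was 29.7% at D25 and 32.9% at D30. The median over annotated genes was between 17.8% and 21.8%. Gm4792 had a CV of 12.6% at D20, below the median of 19.1%, which reached 60.9% at D30, where counting alone gives 20.1%. Mybpc1 had 41.1% and 65.3% at D20 and D22, when counting gives 4.96% and 6.43%. Ddn had a CV of 105% at D25 and 80.5% at D30, above the 95th percentile of annotated genes at both timepoints (64.6% and 66.0%) and far above the counting CVs of 8.49% and 4.72%. Its highest D30 MRO had 48.5 times the level of its lowest, and at D25 the factor was 20.9.

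The MROs with little Ddn at D30, replicates 3 and 6, were not those with little 5430419D17Rik, which had 56.7 and 36.6 normalized CPM there and was highest of all in replicate 3. As deviations from the timepoint means of log2(normalized CPM + 0.5), Ddn and 5430419D17Rik had a correlation of -0.01 over the 24 MROs, against 0.76 without removal of the timepoint means. Within the timepoints their correlation was 0.04, 0.32, 0.58 and -0.46 in time order (n = 6 each). At D20 and D22, 5 and 4 of the 6 MROs had no 5430419D17Rik read. Among the 3 genes highest at D20, the correlation of deviations was 0.55 for Mybpc1 and Gm4792, 0.57 for Mybpc1 and Arhgef37 and 0.33 for Gm4792 and Arhgef37, and without removal of the means it was 0.96, 0.96 and 0.95. These correlations are descriptions, and the points share library and timepoint.

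The deviations of each gene within timepoints were then set against those of 11 marker lists, 55 pairs in all, by 2-sided permutation tests of MROs within timepoints. The lists of cortex type neurons, rod photoreceptors and podocytes were shortened after their results had been seen, so their values are a description without a test. Ddn varied with the summed level of 7 genes of cortex type neurons (Emx1, Emx2, Tbr1, Neurod2, Neurod6, Fezf2 and Bcl11b), with Pearson's r = 0.81 over 24 MROs, while Spearman's rank correlation was 0.43. Without the 2 MROs farthest from the median of the list, r was 0.76, and with Emx1 and Emx2 alone, also chosen after the data were seen, it was 0.45.

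Within the timepoints, r was 0.58, -0.43, 0.82 and 0.98 in time order (n = 6 each). Without the 2 MROs farthest from the median, the D25 value was 0.50 and the D30 value 0.43. At D30, replicates 6 and 3 had a summed cortex list of 12.6 and 41.5 normalized CPM and a Ddn level of 1.22 and 5.85. The other 4 D30 MROs had 168 to 254 for the list and 23.7 to 59.2 for Ddn. At D25, replicate 2 was lowest in both measures, at 15.9 and 0.976, and replicates 1 and 6 were highest in both, at 310.0 and 20.4 and at 170.5 and 18.1. D25 replicate 4 had the third highest list level of its day, 132, with a Ddn level of 1.94, and D20 replicate 6 had a list level of 224.5 with a Ddn level of 0.960.

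Ddn per unit of the list was also not the same at all timepoints. As a percentage of the summed list, Ddn was between 0.428% and 3.40% at D20 (median 1.45%), between 0% and 3.65% at D22 (1.38%), between 1.47% and 10.6% at D25 (6.53%) and between 9.70% and 31.9% at D30 (14.7%). Every D30 MRO was above every MRO of D22 or D20 on this measure, including the replicates 3 and 6 with little Ddn. D30 overlapped D25 through the lowest D30 value, 9.70% in replicate 6, and the highest D25 value, 10.6%. The choice of Ddn used its differences between timepoints, which enter these percentages, so nothing is read from their order. The summed list ranged from 22.0 to 224.5 normalized CPM at D20, from 12.97 to 29.7 at D22, from 15.9 to 310.0 at D25 and from 12.6 to 254 at D30. All 7 list genes were detected. Emx1, a defining marker of dorsal forebrain, was at 0 in 4 libraries, Tbr1 in 1 and Emx2 in 0. From D20 to D30 the means were 1.16, 0.275, 1.93 and 2.62 normalized CPM for Emx1. They were 2.01, 1.21, 4.685 and 8.575 for Emx2 and 1.89, 1.02, 4.58 and 5.61 for Tbr1. Neurod6 made up the largest part of the list at D20, D25 and D30, with means of 40.0, 3.41, 76.0 and 93.7 normalized CPM from D20 to D30, and Fezf2, with 7.95, the largest at D22. Neurod2 and Neurod6 are factors of excitatory cortical neurons, and several of the list's genes are also used by retinal neurons. The authors of the study read Neurod6 in these MROs as a gene of postmitotic amacrine cells. The part of such cells in the Ddn level was not tested. The 6 podocyte genes summed to between 121 and 406 normalized CPM, most of it from Podxl and Ptpro. Of the defining ones, Wt1 had no read in 14 of 24 libraries and Nphs1, nephrin, was at most 1.49 normalized CPM.

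**Figure D2:**
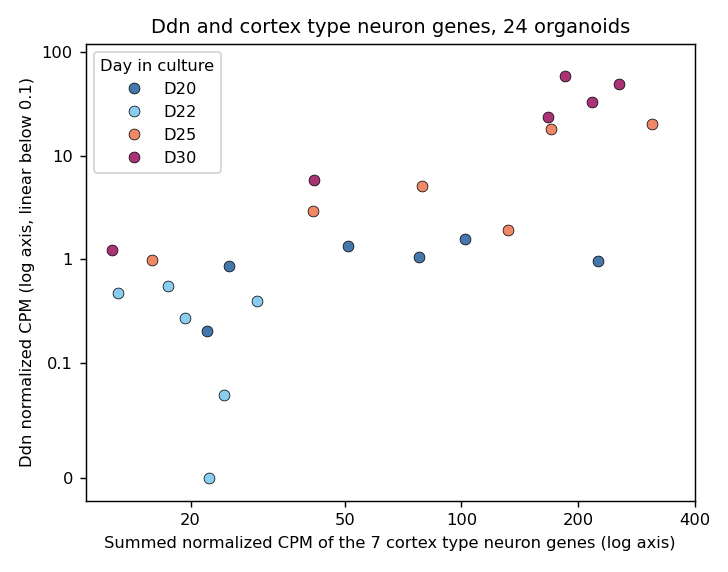
Ddn level (vertical axis, normalized CPM, logarithmic above 0.1 and linear below) against the summed normalized CPM of 7 cortex type neuron genes (horizontal axis, logarithmic) in each of 24 organoids, coloured by day in culture. The D30 organoids lie above those of D20 and D22 at a like list level, a difference between timepoints that the choice of Ddn used. The 2 D30 organoids with the lowest list level, 12.6 and 41.5, have the lowest Ddn of that day.

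Of the 40 pairs with the 8 lists that were left whole, 4 passed at an unadjusted p of 0.05, and 1, Ddn with 8 genes of horizontal and amacrine cell genesis, passed when adjusted over all 55 pairs. Its r was -0.63 (permutation p = 0.00131, adjusted p = 0.0360, n = 24), and when adjusted over the 40 pairs alone it did not pass (permutation p adjusted to 0.0524). Spearman's rank correlation was -0.47 (permutation p = 0.0359, adjusted p = 0.305) and did not pass. Without the 2 MROs farthest from the median, r was -0.60. Within the timepoints it was 0.34, -0.39, -0.94 and -0.75. The D25 value had an exact permutation p of 0.0139 (adjusted p = 0.0556 over the 4 timepoints). At D25 the summed list came mostly from Tfap2b and Prox1, with means of 122.9 and 39.8 normalized CPM. Ptf1a, Foxn4 and Onecut1 had only 0.118, 3.41 and 3.74. With the mean of log2 values as list level, in which each gene counts alike, r over the 24 MROs was -0.85. The nearest pair among the other 4 genes was Arhgef37 with neurogenic progenitors (r = 0.59, permutation p adjusted to 0.0695), which did not pass. With the 7 rod photoreceptor genes, r was -0.63 for Arhgef37 and -0.60 for Mybpc1. The Mybpc1 value was -0.36 with the mean of log2 values, and within the timepoints it was -0.62, -0.92, -0.96 and 0.265. The summed progenitor list had medians of 954, 595, 245 and 199 normalized CPM from D20 to D30, and the rod list 730.5, 1463, 4653 and 6757.

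The genes most like each of the 5 were named by Pearson's r of log2(normalized CPM + 0.5) over the 24 MROs. Such r values mostly follow the shared time course, and they are descriptions. For Mybpc1 they were Luc7l (r = 0.97), Rpl5, Srrm1, Gm15500 and Gm14207. Luc7l and Srrm1 act in splicing, Rpl5 is a ribosomal protein, and their levels changed far less, from 437 to 246 normalized CPM for Luc7l between D20 and D30. For Gm4792 they were Gm14207 (r = 0.97), the eye and ear homeobox gene Hmx1 (r = 0.97), the tight junction gene Cgn, the noradrenaline transporter gene Slc6a2 and Foxn4, a factor of horizontal and amacrine cell birth. For Arhgef37 they were Baz1a (r = 0.98), a chromatin remodelling subunit, E2f1, an activator of S phase genes, Usp3, Foxn4 and Mybl1.

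For 5430419D17Rik, the gene with the highest likeness was Gnat1 (r = 0.98), the alpha subunit of rod transducin, which had means of 0.247, 0.732, 9.63 and 269 normalized CPM over the 4 timepoints. Gucy2f, a guanylate cyclase of photoreceptors (r = 0.98), had 0.0117, 0.381, 2.14 and 42.9 normalized CPM, and Zfyve28, Lad1 and Prnp followed. For Ddn, the 5 were Adap1 (r = 0.97), Hpca (r = 0.97), Wsb2, Fam81a and Gabbr2. Adap1 is an ArfGAP of neurons, Hpca is the calcium sensor hippocalcin and Gabbr2 is a subunit of the GABA-B receptor.

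With the timepoint means removed, the 3 closest genes were Hook2 (r = 0.83), Gm15500 (0.81) and Agbl5 (0.80) for Mybpc1 and Zic1 (0.77), Tnfrsf10b and Cd1d1 for Arhgef37. For Gm4792 they were Cgn (0.78), Hmx1 (0.77) and Hyi (0.76). For 5430419D17Rik no gene passed 0.63 (Tsen34), and Gnat1 was not among its 3. Ddn had the closest relations of the 5, with Ttl, the tubulin tyrosine ligase (0.96), Adap1 (0.95) and Lsm11 (0.95). Of these, Gm15500, Cgn, Hmx1 and Adap1 were also among the 5 named before for the same gene.

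**Figure D3:**
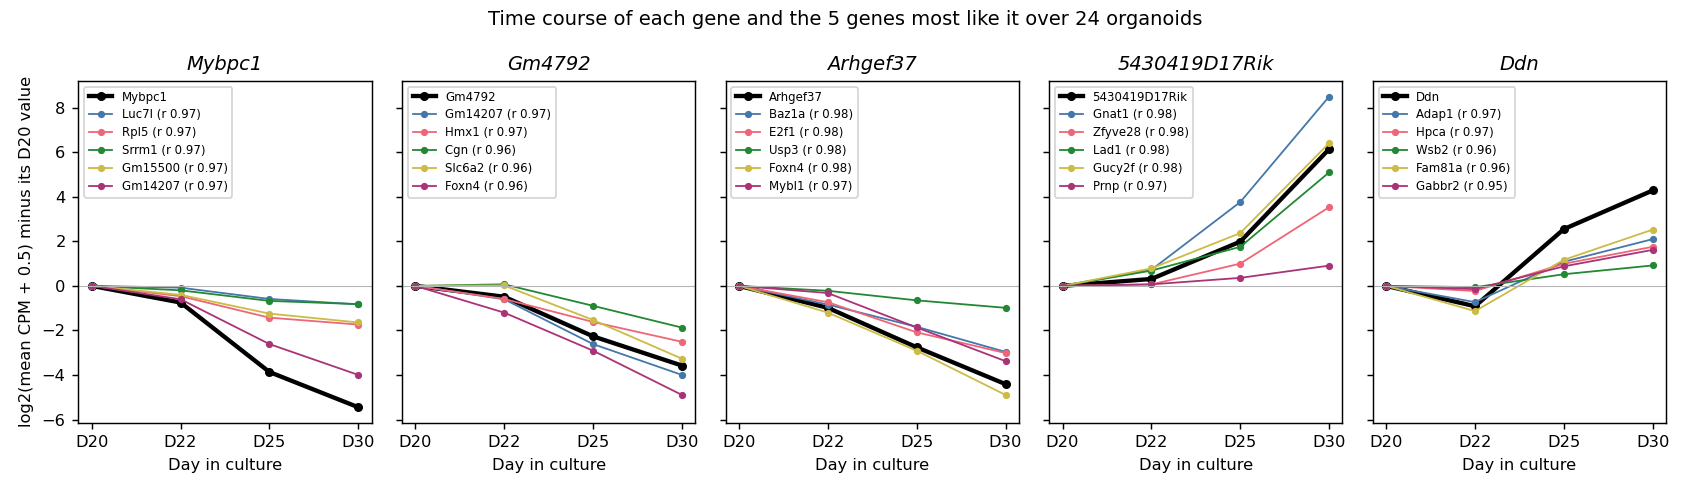
Mean level at each day in culture (horizontal axis) as log2(mean normalized CPM + 0.5) minus its D20 value (vertical axis), for each gene in black and for the 5 genes with the highest Pearson r over 24 organoids in colour, with r in the legends. The shape of the course is shared while its size differs, with Mybpc1 changing more than its 5 and Gnat1 more than 5430419D17Rik.

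The relatives and partners had no part in the choice of the 5 genes. Their lists were, however, written with earlier results of these data known, and that of dendrin partners was shortened. The share of them called is therefore a description. Each was put to the quasi-likelihood test of edgeR at an adjusted p of 0.01. Of 75 listed genes, 60 passed the filter, and for D30 against D20 27 of them rose and 5 fell, 53.3% in all. The same test called 26.8% of all features (13.9% higher and 13% lower) and 41.8% of the 16253 annotated genes tested, with a median log2 fold change of 0.10 for annotated genes and 0.50 for the 60. None of the 60 was called lower at a single step. Under alternatives Iqsec1 was called lower for D30 against D25 (edgeR adjusted p = 0.00551 with the replicate block, 0.0029 with annotated genes only). Magi1 was called lower for D25 against D22 with annotated genes only (edgeR adjusted p = 0.00771). For D22 against D20, 2 of the 60 rose, where 1.9% of all features (1.62% higher, 0.285% lower) and 3.32% of annotated genes were called. For D25 against D22, 12 rose, where the shares were 5.28% (3.08% higher, 2.19% lower) and 10.2%. For D30 against D25, 4 rose, where they were 3.51% (1.76% higher, 1.75% lower) and 7.38%. The 4 calls of the last step were 8 with DESeq2, 1 without D25 replicate 5 or without D30 replicate 5, 2 without D25 replicate 3 and 9 without D30 replicate 6.

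Among the relatives of Mybpc1, 4 of 8 genes of the myosin binding protein C family and the M band were tested. Only Obsl1, a cytoskeletal adaptor, passed for D30 against D20, with a fall of log2 -0.67 ± 0.16 (edgeR adjusted p = 0.0014). The 4 values lay between -0.67 and 0.57, against -7.61 ± 0.63 for Mybpc1, and Mybpc2, Mybpc3, Mybph and Myom2 were too low to be tested. Of 25 other Dbl family exchange factors listed, 23 were tested, of which 8 rose and 1 fell between D20 and D30. Over the same interval 41.8% of annotated genes and 26.8% of all features were called (13.9% higher, 13% lower). The median log2 fold change of the 23 was 0.30, against 0.10 for annotated genes. Arhgef26 rose at every step, by log2 1.15 ± 0.19, 1.70 ± 0.19 and 0.81 ± 0.18, and by 3.66 ± 0.20 over the whole course (edgeR adjusted p = 8.761e-15). Arhgef3 rose by 1.88 ± 0.29 and Arhgef4 by 1.40 ± 0.34 on the log2 scale. Arhgef39 was the only tested relative called in the direction of Arhgef37, with log2 -2.22 ± 0.29 (edgeR adjusted p = 3.372e-07). Others had smaller negative values that were not called, among them Arhgef10l with log2 -0.30 (edgeR adjusted p = 0.0344). Arhgef10l did pass when only annotated genes were fitted, with log2 -0.39 (edgeR adjusted p = 0.0025).

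Of 14 proteins with scavenger receptor cysteine-rich or CUB domains listed beside 5430419D17Rik, 6 were tested. Prss12, the serine protease neurotrypsin, rose by log2 4.52 ± 0.75 between D20 and D30 and by 3.96 ± 0.75 already between D22 and D25. Lgals3bp rose by log2 3.26 ± 0.82 and Loxl2, a lysyl oxidase, fell by log2 1.43 ± 0.23. Of 8 slit diaphragm and scaffold partners of dendrin, 7 were tested. Kirrel rose by log2 1.66 ± 0.15 between D20 and D30, Actn4 by 0.84 ± 0.13 and Magi2 by 0.72 ± 0.10, and Cd2ap fell by log2 0.50 ± 0.10. Magi2 had its change between D20 and D22, with log2 0.72 ± 0.10, when Ddn was at its lowest.

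All 20 listed genes of the postsynaptic density were tested, and 14 rose and 1 fell between D20 and D30, with a median log2 fold change of 1.68. The share called between these timepoints was 41.8% of annotated genes and 26.8% of all features (13.9% higher, 13% lower). The largest rises were those of Nrgn, neurogranin, with log2 5.55 ± 0.92, Grin2a, an NMDA receptor subunit, with 5.05 ± 0.69, and Camk2a, a calcium/calmodulin kinase, with 4.43 ± 0.72. Iqsec1 fell by log2 0.42 ± 0.11. At the step at which Ddn first became abundant, D25 against D22, 6 of the 20 rose, led by Grin2a (4.15 ± 0.73), Nrgn (4.03 ± 0.89) and Camk2b (1.64 ± 0.31). For D25 against D22, 10.2% of annotated genes and 5.28% of all features were called (3.08% higher, 2.19% lower). With the replicate number as a block, Nrgn did not pass at this step (edgeR adjusted p = 0.0134). The summed cortex type neuron list was lowest at D22 and highest at D30, with medians of 64.4, 20.8, 106 and 176 normalized CPM from D20 to D30, and its part in the postsynaptic density counts was not tested. At the next step Camk2a (3.06 ± 0.66) and Psd (0.96 ± 0.21) rose. The lists were written with earlier results of these data known.

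**Figure D4:**
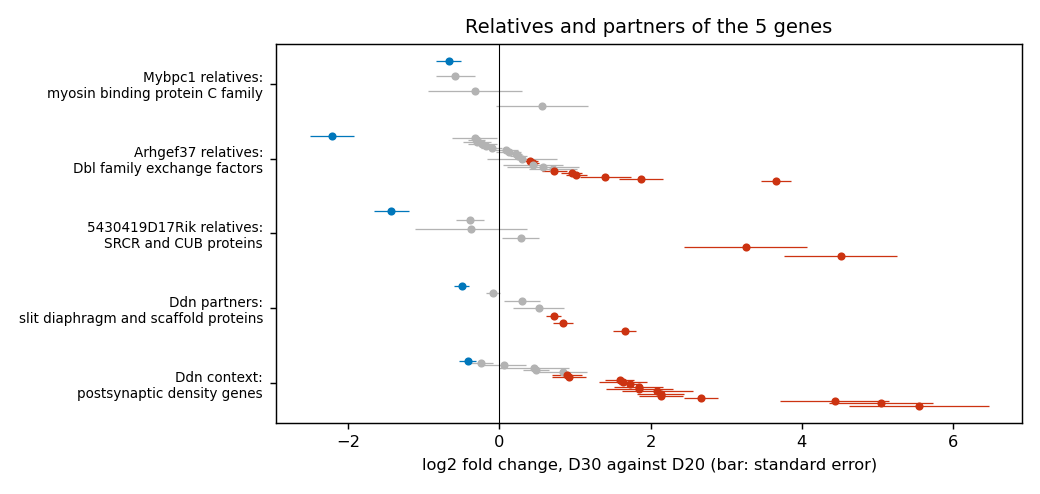
Fitted log2 fold change for D30 against D20 (horizontal axis) of the tested relatives and partners of the 5 genes, grouped by list (vertical axis), with bars for the standard error. Red marks a rise, blue a fall at an adjusted p of 0.01, and grey neither. Of the postsynaptic density genes 14 of 20 are red, and of the tested Mybpc1 relatives none is. Over all features tested, 13.9% were called higher.

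The genomic neighbours within 250 kb were 101 genes, of which 43 were tested. For D30 against D20, 13 rose and 6 fell, 44.2% in all, which is near the 41.8% of all annotated genes. The median log2 fold change was 0.14, against 0.10 for annotated genes. For the steps in time order 5, 8 and 5 were called, 11.6%, 18.6% and 11.6%, against 3.32%, 10.2% and 7.38% of annotated genes. Without 1 MRO these counts went down to 3 (D22 replicate 3), 4 (D22 replicate 1 or 4) and 3 (D22 replicate 4, D25 replicate 2 or 6, or D30 replicate 1 or 3), and the last count was 8 with DESeq2. The neighbour with the largest change was Pde6a, the alpha subunit of the rod phosphodiesterase, which lies 201.7 kb from Arhgef37 on the opposite strand. Pde6a rose by log2 1.98 ± 0.28, 2.79 ± 0.23 and 3.06 ± 0.22 at the 3 steps and by 7.84 ± 0.30 in all (edgeR adjusted p = 6.882e-18), while Arhgef37 took the opposite course. In the same region Ppargc1b, a coactivator of nuclear receptors, rose by log2 2.57 ± 0.18, and Rps2-ps10 and Afap1l1 fell by log2 1.49 ± 0.32 and 2.08 ± 0.26. Csnk1a1, the closest to Arhgef37 at 18.7 kb, had a log2 fold change of -0.12 ± 0.07 and was not called.

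Beside Mybpc1, Chpt1 at 14.2 kb, an enzyme of phosphatidylcholine synthesis, rose by log2 1.23 ± 0.19 between D20 and D30, Gnptab by 0.99 ± 0.17 and Arl1 by 0.37 ± 0.09. Beside Gm4792, Tmcc3 at 13.2 kb and Fgd6 fell by log2 0.59 ± 0.13 and 0.67 ± 0.15, and Nr2c1 and Ndufa12 were not called. Around 5430419D17Rik, the secreted protease gene Htra1 rose by log2 2.63 ± 0.22, Fgfr2 by 2.54 ± 0.36 and Acadsb by 0.33 ± 0.09, which did not pass when only annotated genes were fitted (edgeR adjusted p = 0.0148). Fgfr2, a receptor for fibroblast growth factors, overlaps the body of 5430419D17Rik on the other strand without a shared exon base. Its means were 4.47, 2.80, 10.8 and 25.9 normalized CPM from D20 to D30, so that its reads were already present when 5430419D17Rik had 1 read. Around Ddn, 5 of 20 tested neighbours rose and 2 fell, where 41.8% of annotated genes and 26.8% of all features were called. Among these neighbours were Dhh, the hedgehog ligand, with log2 3.17 ± 0.49, Ccdc65 with 2.67 ± 0.26 and 4930578M01Rik with -2.42 ± 0.27. Prkag1, 3.3 kb from Ddn, rose by log2 0.50 ± 0.14.

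B130046B21Rik is antisense to Ddn and shares 177 of its 3781 exon bases. Its means were 0.602, 0.759, 0.651 and 0.783 normalized CPM, with a log2 fold change of 0.37 ± 0.57 for D30 against D20 (edgeR adjusted p = 0.647). The mean level of Ddn was above that of this partner at D25 and D30. At D20 it was 0.997 ± 0.471 against 0.602 ± 0.396 normalized CPM (SD), and at D22 it was below, with 0.295 against 0.759. Of the exon bases of Mybpc1, 252 of 4527 are shared with Gm48752 on the opposite strand, which was not analysed here. The library kit marks strand, but the strand setting of the counting is not given in the sources used here, so reads from these shared bases cannot be assigned to 1 strand with certainty.

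**Figure D5:**
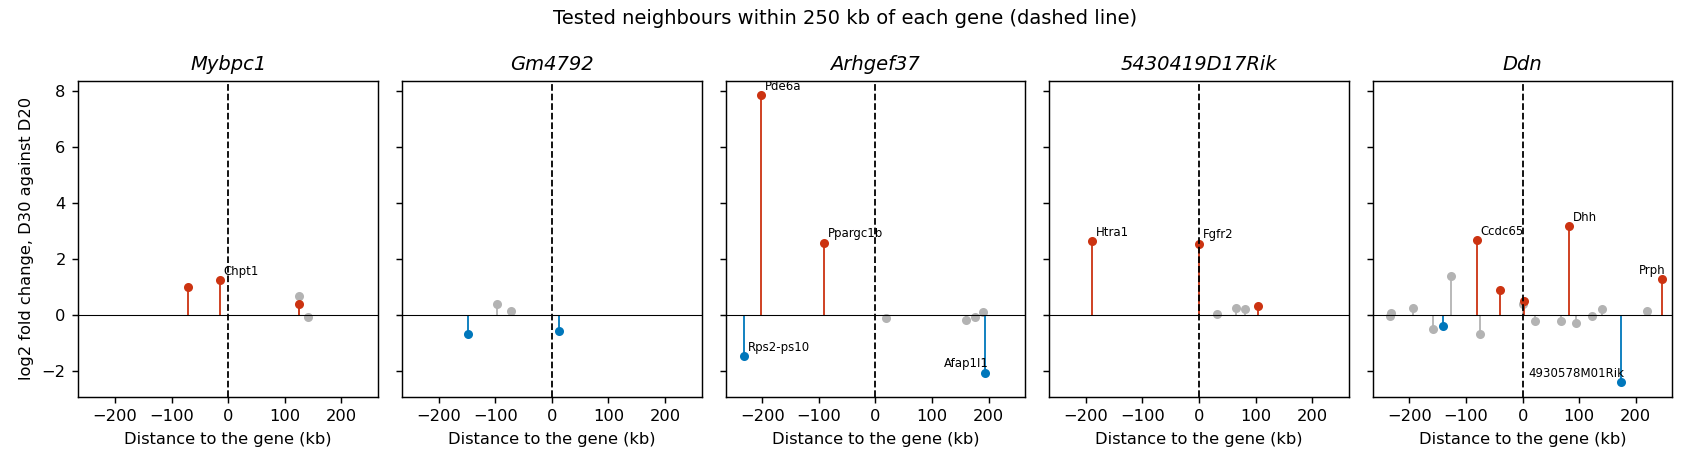
Fitted log2 fold change for D30 against D20 (vertical axis) of the tested neighbours within 250 kb, by distance in kb from each gene (horizontal axis, the gene at the dashed line at 0). Red marks a rise, blue a fall at an adjusted p of 0.01, and grey neither. Pde6a, 201.7 kb from Arhgef37, has the largest value, 7.84, and each panel but those of 5430419D17Rik and Mybpc1 holds called falls.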

How the data were processed

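Gene counts of 24 individual MROs, 6 at each of 4 timepoints, were analysed. Per the labels and the methods of the study, RNA was depleted of ribosomal RNA and made into strand-specific libraries. The authors trimmed the reads with cutadapt (version 1.5), aligned them to GRCm38/mm10 with hisat2, assembled further loci with StringTie (version 1.3.3) and counted reads per feature with HTSeq (version 0.6.1). The deposited values are these raw counts, without normalization, for 46603 annotated genes and 79999 assembled loci. Reads on no feature were 35.0% to 45.6% of the reads in the tables' totals and were left out. GENCODE vM21 gave a symbol to 46091 of the annotated genes.

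The filter kept 46949 features with 10 or more normalized counts on average, of which 16253 are annotated. Under R (version 4.3.3), edgeR (version 4.0.16) fitted its quasi-likelihood model to TMM-scaled counts of all 24 MROs at once, without covariates. P-values were adjusted after Benjamini and Hochberg across the tested features, at a threshold of 0.01. The common biological coefficient of variation was 0.3846. Standard errors came from the fold change and the F statistic. CPM were normalized by the TMM-scaled library size. Correlations used log2(normalized CPM + 0.5), deviations from timepoint means and 100000 permutations of MROs within timepoints, or exact permutation tests within 1 timepoint, computed with scipy (version 1.17.1). The scripts were tested on simulated counts.

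The members and gene lists were chosen with earlier results of these data known. Some listed genes are not reported here, and the lists of cortex type neurons, rods, podocytes and dendrin partners were shortened for that reason. Named were the 5 genes, for each the 5 genes with the highest correlation and the 3 with the highest timepoint-centred one, up to 3 called genes per list, comparison and direction, genomic neighbours within 250 kb, and markers of the lists described. The coefficient of variation was set beside all annotated genes rather than genes of a like mean. Replicate numbers name different MROs. No 2 of 60 library pairs of a timepoint agreed within sampling noise. Alternatives were DESeq2 (version 1.42.0), DESeq2's size factors, other filters, annotated genes only, the replicate block, leaving out each MRO, another pseudocount, the mean of log2 values as list level and leaving out 2 MROs.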

Additional observations from a re-analysis of the deposited data

Results flagged for a closer look

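Of the 20 groups of 6 MROs (5 genes at 4 timepoints), 4 held an MRO that stood apart from the others, where chance alone gives about 1 in 20 for continuous values. That rate does not hold for the 3 that rest on few reads, those of 5430419D17Rik and Mybpc1. At D20, replicate 6 had 0.0640 normalized CPM of 5430419D17Rik, which is 1 read, and the other 5 had none. At D22, replicate 6 had 0.732 normalized CPM of the same gene, from 11 reads, and the next highest had 0.0676. Arhgef37 was at 10.1 normalized CPM in D25 replicate 3, with the next at 7.04. Mybpc1 was at 0.619 normalized CPM in D30 replicate 4, from 9 reads, with the next at 0.232.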

How the results depend on the processing

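Of 950 values recomputed under an alternative, 905 stayed within the limits set, 44 moved, 1 no longer passed and none reversed. All 551 fold changes of the 5 genes kept their direction, and 547 moved by less than 1 SD. The other 4 were 5430419D17Rik at 6.16 without D22 replicate 6 (D25 against D22) and 12.12 without D20 replicate 6 (D30 against D20), and Mybpc1 at -4.67 (D30 against D25) and -8.96 (D30 against D20) without D30 replicate 4. Those folds are limited by 1 to 13 reads in the low group. The choice of the genes used these contrasts, so nothing is read from the kept direction. Many of the 551 values also came from leaving out an MRO outside the comparison, which can hardly move it. The fold of 5430419D17Rik for D22 against D20 was not among them, since both groups had means below 3 counts. For D30 against D25, DESeq2 called 8 relatives and partners (edgeR 4) and 8 neighbours (edgeR 5). The replicate block gave 3 neighbours for that step, and the pairing by number changed no other count by over 1.5 times, while it ended the call of Nrgn for D25 against D22. Over 36 same-numbered pairs the correlation of deviations was between -0.2057 and 0.3651 with a median of -0.0156, and 5 were over 0.1. Pairs with different numbers were not compared, so these values cannot decide whether the numbers pair samples. The cause of the higher values was not tested. Leaving out each MRO in turn gave 2 to 3, 9 to 15, 1 to 9 and 31 to 34 relatives and partners for D22 against D20, D25 against D22, D30 against D25 and D30 against D20. For neighbours it gave 3 to 7, 4 to 8, 3 to 6 and 17 to 20. The lowest neighbour counts were 3 without D22 replicate 3 for D22 against D20, 4 without D22 replicate 1 or 4 for D25 against D22 (5 without D25 replicate 4 or 6), and 3 without D22 replicate 4, D25 replicate 2 or 6, or D30 replicate 1 or 3 for D30 against D25. The correlation of Ddn with horizontal and amacrine genesis, -0.63, did not pass when adjusted over the lists that were not shortened (a choice made after the data were seen), since that family no longer held a pair with a smaller p. It was -0.85 with the mean of log2 values as list level, and that with cortex type neurons was 0.45 with Emx1 and Emx2 only, chosen after the data were seen. Another 21 correlations that had not passed the test moved.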
